A study of Mus musculus with 64 samples.

Results

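The comparison described here asked what a dose of 4-hydroxytamoxifen (4-OHT) and the days that followed it did to the transcriptome of CD4 T cells that could not turn on Foxp3. It used the 20 libraries titled minusFoxp3 of the 64 in the series: 4 untreated (D0) and 16 taken on D3, D7, D14 or D28 after 4-OHT, with resting and active cells sequenced separately and 2 libraries per state and day. The mice were heterozygous females, of an age the labels do not give, carrying the Foxp3 LSL allele, in which a loxP-flanked Thy1.1 reporter and stop cassette keeps Foxp3 off, and their genotype label, Foxp3-LSLCD4-WT, marks animals without CreERT2. Cells were sorted from spleen and lymph nodes as Thy1.1+GFP- CD4 T cells, which have switched on the Foxp3 locus but make no Foxp3 protein (Treg wannabe cells in the labels), and split into a resting (CD44 low) and an active (CD44 high) fraction. The untreated libraries share the allele with the treated ones but received no vehicle, and no treated day has an untreated library of its own, so 4-OHT and elapsed time cannot be told apart. Because 1 X chromosome is silenced at random in each cell of a female, functional regulatory T (Treg) cells with an intact Foxp3 were present in the same animals. The 20 plusFoxp3 libraries (Foxp3-LSLCD4-CreERT2, same days and states, none shared) are used only for comparison: in them CreERT2 is expressed from Cd4, 4-OHT removes the stop cassette, and cells after 4-OHT were sorted as GFP+.

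4-OHT is the active metabolite of tamoxifen. It binds the estrogen receptor, on which it acts as an agonist or an antagonist depending on the tissue, and at higher exposure tamoxifen and its metabolites also bind sterol-handling enzymes, so that cholesterol synthesis is a recognised target. The ligand-binding domain fused to Cre in CreERT2 is a mutated estrogen receptor that 4-OHT admits to the nucleus, and for this reason a 4-OHT-treated animal without Cre is the usual control for the drug itself.

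The libraries held 42746339 to 57049049 assigned read pairs each in minusFoxp3 cells and 35097257 to 57419138 in plusFoxp3 cells. Levels are given as CPM, each gene's count relative to the library's TMM-scaled total, and a level in CPM was compared between libraries, not between genes. In sorted populations fewer cells of a type and less RNA per cell cannot be told apart. The expression of the sorting markers Cd44 and Cd3e followed the labels. Cd44 was at 61.9 to 98.8 CPM in resting and at 159 to 248 CPM in active libraries, and Cd3e, the CD3 epsilon chain, was at 680 to 916 CPM in all 20. Several defining markers of other cells were close to 0: the median over the 20 libraries was 0.422 CPM for Cd8a (CD8 T cells), 0.0231 for Adgre1 (macrophages) and 0.0 for Ncr1 (NK cells). Of the marker lists for other cell types, 7 of 16 B and plasma cell genes, 14 of 20 myeloid genes, 10 of 14 CD8 and NK cell genes and 11 of 12 erythroid and platelet genes had a median under 1 CPM. Other members of these lists were not low: Cd8b1 had a median of 20.96 CPM, Gzmb of 18.0, Ighm of 418, Cst3 of 146 and Bst2 of 114.5 CPM, and their source was not tested. On D3 the 7 erythroid and platelet genes tested had a median log2 change of 1.17 and the 7 stromal and endothelial genes one of -0.59, with none called.

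One untreated library stood apart. In resting D0 replicate 2, Plekhh2, which encodes a cytoskeletal PH and FERM domain protein, was at 4532 CPM, whereas the next highest of the other minusFoxp3 libraries was at 15.2 CPM. The same library held the highest Igkc (207 CPM) and Jchain (41.1 CPM) levels of the 20, both genes of antibody-secreting cells. The other resting D0 library had 5.25 CPM of Igkc and 1.55 CPM of Jchain. High levels were not confined to this library: active D7 replicate 1 had 113 CPM of Igkc and 36.4 CPM of Jchain. Summed over the B and plasma cell list, resting D0 libraries were at 603 and 816 CPM and resting treated libraries at 509 to 680 CPM. Without this library edgeR called 0 genes for treatment, Igkc had a change of 0.78 in place of -2.41 and Jchain 0.50 in place of -2.24, none of them called. The count of genes called for treatment changed for 16 of the 20 libraries when each was left out in turn, so that change is not particular to this library.

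The genotypes were visible in the counts. Foxp3 (chrX:7439883-7461484, GRCm39, plus strand) was at 68.1 and 75.1 CPM in resting and 46.3 and 65.5 CPM in active minusFoxp3 cells at D0. In the 16 treated minusFoxp3 libraries its lowest, median and highest levels were 43.2, 56.6 and 77.9 CPM, a range that covers all 4 untreated ones. The mean change over the 4 days was -0.14 on the log2 scale (SE 0.11, 95% interval -0.38 to 0.09). In the 16 treated plusFoxp3 libraries Foxp3 was at 429 to 641 CPM, above every minusFoxp3 library. Counts at the Foxp3 locus do not show protein. Thy1, in which how far reads of the Thy1.1 reporter are counted was not tested, was at 406 to 514 CPM in minusFoxp3 cells at D0 and at 341 to 571 CPM after 4-OHT (log2 change -0.11, SE 0.09), whereas in plusFoxp3 cells it went from 419 to 447 CPM at D0 to 50.7 to 130 CPM. Esr1, the estrogen receptor alpha gene, was at 1.34 to 4.49 CPM in the 20 minusFoxp3 libraries and at 14.6 to 25.3 CPM in the 20 plusFoxp3 libraries, a ratio of medians of 6.30. The 2 genotypes did not overlap for this gene, and at D0 alone 4 against 4 libraries gave a two-sided exact permutation p of 0.0286, the smallest that design allows. This p takes all libraries as independent. Resting and active libraries of the same number may share an animal, in which case it is too small. The higher value was present before 4-OHT, and whether it includes reads of the CreERT2 transgene was not tested. Within minusFoxp3 cells the log2 change of Esr1 with treatment was -0.04 (SE 0.22, 95% interval -0.51 to 0.43), and that of Cd4, the co-receptor gene, 0.08 (SE 0.11).

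**Figure D1:**
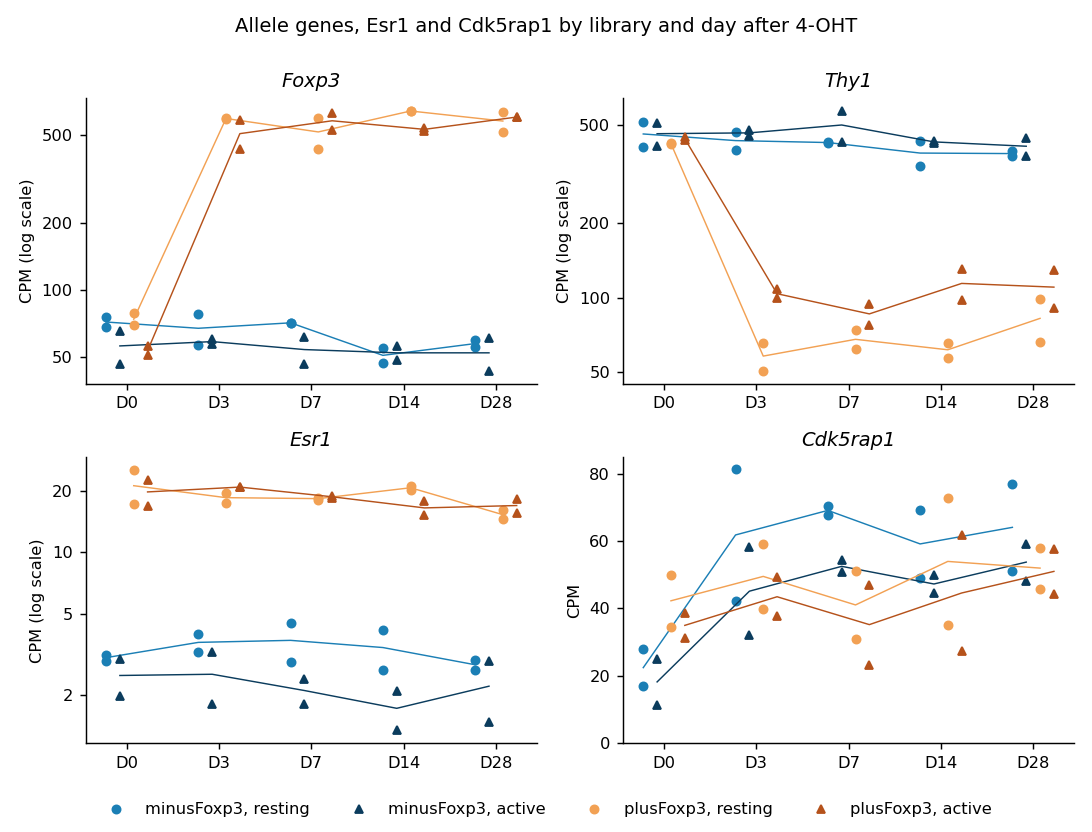
CPM of Foxp3, Thy1, Esr1 (log scales) and Cdk5rap1 (linear scale) in every minusFoxp3 (blue) and plusFoxp3 (orange) library by day after 4-OHT, with circles for resting and triangles for active cells and lines through the means of 2 libraries. In minusFoxp3 cells Foxp3 and Thy1 stayed between 43.2 and 77.9 CPM and between 341 and 571 CPM over all days, and Cdk5rap1 was lowest in the 4 untreated libraries.

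Across the transcriptome, a single gene passed the threshold between treated and untreated minusFoxp3 cells. Of 20834 genes tested in edgeR, with cell state beside the day, 1 (0.0048%) had a Benjamini-Hochberg adjusted p under 0.05 for the mean of the 4 treated days against D0, and 755 (3.62%) had an unadjusted p under 0.05. The filter on low counts mattered to this: without it edgeR called 244 genes, 132 of them with a mean count of at least 10. The median log2 change over all genes was 0.0016. DESeq2 on the same libraries called 7 genes, 3 higher and 4 lower, among them Cdk5rap1, Cacna1a and the Plekhh2 and Igkv6-15 transcripts of the single library described above. Summing the resting and active library of the same day and replicate number, which may come from the same animal, left 0 genes called in edgeR and 638 with an unadjusted p under 0.05. Treating them as correlated in limma left 1. In edgeR, which takes all libraries as independent, the 95% interval of the change lay within 2-fold in both directions for 16180 genes (77.7%), and for 11850 of the 12358 genes (95.9%) with a mean count of at least 100. Within 1.5-fold it lay for 79.9% of those better-covered genes. In the correlated limma fit, where 335 genes had an unadjusted p under 0.05, the intervals lay within 2-fold for 14939 genes (71.7%) and for 94.7% of the better-covered ones, and within 1.5-fold for 73.5% of the latter. In 14 genes (0.0672%) the treated libraries did not overlap the D0 libraries in either state and lay on the same side in both, 11 of them higher after treatment, and among the 9 of them with a mean count of at least 100, 2 had a difference of 2-fold or more: Cdk5rap1 and a predicted gene, 5730409E04Rik (1.10), named here after its value was seen.

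The gene that passed was Cdk5rap1 (chr2:154177300-154214930, GRCm39, minus strand), which encodes a mitochondrial enzyme that adds a methylthio group to tRNAs. In resting cells it was at 17.0 and 27.9 CPM at D0, and at 42.3 CPM in the lowest, 68.5 at the median and 81.4 in the highest of the 8 treated libraries. In active cells it was at 11.4 and 25.1 CPM at D0 and at 32.1, 50.3 and 59.2 CPM in the lowest, median and highest treated library. Every treated library lay above both D0 libraries of its state. The change was 1.47 on the log2 scale (SE 0.22, 95% interval 1.02 to 1.92, adjusted p = 0.0379 in edgeR). It was of similar size on each day: 1.40 (SE 0.25) on D3, 1.57 (SE 0.25) on D7, 1.38 (SE 0.25) on D14 and 1.52 (SE 0.25) on D28, with adjusted p between 0.0582 and 0.541 in edgeR. Within resting libraries the difference of mean log2 CPM was 1.51 and within active libraries 1.54, and within replicates 1 and 2 it was 1.79 and 1.26, given without a test because the gene was chosen on these libraries. Leaving out 1 library at a time kept the change between 1.30 and 1.70, and the adjusted p between 0.0201 and 0.160, under 0.05 for 5 of the 20 left-out libraries. Of the 13 other genes tested within 500 kb of Cdk5rap1, 1 had an unadjusted p under 0.05: Bpifa2, a secreted BPI fold protein gene, at 3.64 and 4.89 CPM in resting D0 libraries and 0.0 to 0.901 CPM in resting treated ones (-3.24, edgeR adjusted p = 0.280), a gene picked for its position after the data were seen. In active libraries Bpifa2 was at 0.209 and 1.245 CPM at D0 and at 0.0 to 0.302 CPM after treatment, which overlap. In the summed libraries the Cdk5rap1 change was 1.48 with an edgeR adjusted p of 1.00, and in the correlated limma fit 1.51 with an adjusted p of 0.0197.

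In plusFoxp3 cells Cdk5rap1 was at 31.3 to 49.99 CPM at D0 and at 23.4 to 72.7 CPM after 4-OHT, and its change was 0.24 (edgeR adjusted p = 0.569). The effect differed between the genotypes by 1.25 on the log2 scale (edgeR adjusted p = 0.0203), a test that uses the same D0 libraries again. The same was visible in the D0 levels, given as a description: the 4 untreated minusFoxp3 libraries, at 11.4 to 27.9 CPM, lay below all 4 untreated plusFoxp3 libraries, whereas the treated libraries of the 2 genotypes overlapped. A difference of the untreated animals and an effect of 4-OHT or time cannot be told apart with 2 untreated libraries per state.

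**Figure D2:**
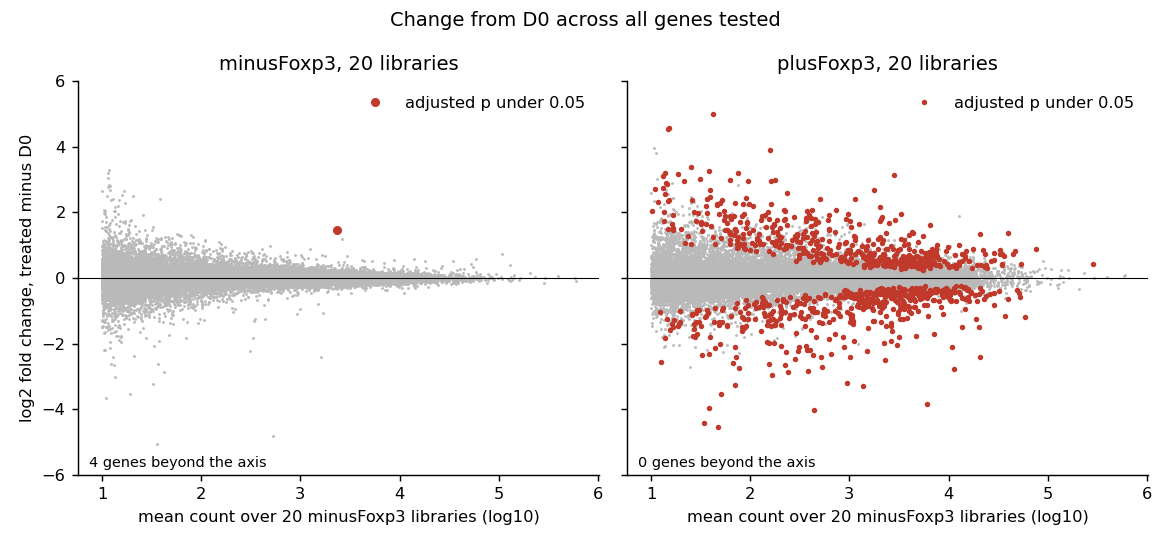
Log2 fold change of the treated days against D0 (vertical) by mean count over the minusFoxp3 libraries (log10, horizontal) for minusFoxp3 (left) and plusFoxp3 (right) cells, with genes at an adjusted p under 0.05 in edgeR in red. One gene is red on the left, and in the plusFoxp3 panel 970 of 984 are shown because 14 were not tested in minusFoxp3 cells; 4 genes on the left lie beyond the axis.

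The genes next in line did not pass and are given as values. Cacna1a, the pore subunit of a P/Q-type calcium channel, was at 7.36 and 7.87 CPM in resting D0 libraries and at 10.7 to 13.3 CPM in resting treated ones, and at 11.0 and 12.7 CPM against 13.7 to 18.6 CPM in active ones, with no overlap in either state. Its change was 0.56 (SE 0.11, edgeR adjusted p = 0.280). Zfp783, a zinc finger gene, had a change of 0.63 (SE 0.16), Fndc10 of 0.60 (SE 0.16) and Stoml1, a stomatin-like membrane protein gene, of 0.36 (SE 0.10), all with an edgeR adjusted p of 1.00. On the lower side, Cd302, a C-type lectin gene, was at 3.74 and 4.97 CPM in resting cells at D0 and at 1.58 to 3.38 CPM after treatment. In active cells it was at 2.05 and 3.87 CPM at D0 and at 1.12 to 3.12 CPM after treatment, which overlap. Its change over both states was -0.80 (SE 0.20). Serpinb6b, a protease inhibitor gene, was at -0.67 (SE 0.17), Golph3l, a Golgi protein gene, at -0.34 (SE 0.09) and Rpusd2, a pseudouridine synthase family gene, at -0.57 (SE 0.16), again without passing. Plekhh2 had the lowest p of the lower genes, with a fitted change of -10.76 that rested on the single D0 library and became 0.07 without it.

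Day by day, no gene passed the threshold against D0 in the main edgeR fit, which has a filter on low counts and no term for the replicate number. With that term Cdk5rap1 passed on each of the 4 days. Without the filter edgeR called genes on each of the 4 days, so the absence of calls depends on it. For D3, D7, D14 and D28 edgeR called 0 genes each (0%), with 1279, 816, 597 and 1028 genes at an unadjusted p under 0.05, and DESeq2 called 19, 11, 13 and 12. With 4 libraries a day the intervals were wider, and they lay within 2-fold for 65.2% of genes on D28 and 89.8% of those with a mean count of at least 100. Cdk5rap1 had the lowest p of the higher genes on each day among those with a mean count of at least 100. Tasor, a subunit of the HUSH silencing complex, was the lower gene with the lowest p on D3, at 54.5 and 59.2 CPM in resting cells against 76.8 and 78.6 CPM at D0 (-0.43, edgeR adjusted p = 0.521). Tlr2, a receptor for bacterial lipoproteins, was at 7.36 and 7.75 CPM in resting cells on D28 against 1.80 and 2.52 CPM at D0 (1.25, edgeR adjusted p = 0.825).

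The treated days were then compared with each other. In edgeR 0 of 20834 genes (0%) passed for a difference among the 4 treated days, where 1280 had an unadjusted p under 0.05, and DESeq2 called 31. The filter on low counts mattered here too: without it edgeR called genes among the days and from D3 to D28. From D3 to D28 edgeR called 0 genes (0%) with 1481 at an unadjusted p under 0.05, and DESeq2 called 5, Spaca1, Ciita, Tasor, AI854703 and the immunoglobulin segment Igkv8-19, the last 2 named after their values were seen. Ciita, the transactivator of MHC class II genes, was at 2.39 and 3.69 CPM on D3 and at 5.48 and 5.85 CPM on D28 in active cells, and at 0.283 and 0.716 against 1.41 and 2.81 CPM in resting cells (log2 difference 1.42, edgeR adjusted p = 0.694). Spaca1, a gene of the sperm acrosome membrane, had a difference of 1.65 and Bag2, an HSP70 co-chaperone gene, of -1.53, neither called.

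Resting and active cells were then compared for their response. The effect of treatment differed between them past the threshold for 0 of 20834 genes in edgeR (0%), with 505 at an unadjusted p under 0.05, and DESeq2 called Igha and Plekhh2, both highest in resting cells in D0 replicate 2. The median standard error of that difference was 0.437 on the log2 scale, beside 0.211 for the treatment effect itself. Without the filter on low counts edgeR called genes for this difference as well.

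The gene lists for pathways that 4-OHT acts on, for stress and metabolism and for T cell programmes gave small values. Over 27 lists, marker lists included, 641 distinct genes were tested and 0 were called in edgeR for the treated days against D0, 12 (1.87%) had an unadjusted p under 0.05 beside 3.62% of all genes, and the interval lay within 2-fold for 546 (85.2%). List medians ran from -0.09 to 0.26, beside 0.0016 over all genes. Among 26 estrogen receptor target genes the median was 0.05, 15 were positive, none had an unadjusted p under 0.05, and the interval lay within 2-fold for 18. Their 2 lowest p values belonged to Tiam1, a Rac exchange factor, at 0.18 (SE 0.10, 95% interval -0.02 to 0.38), and Fkbp4, a steroid receptor co-chaperone, at -0.20 (SE 0.11, -0.43 to 0.02). Among 32 genes of cholesterol synthesis and SREBP control the median was 0.01, 17 were positive and the interval lay within 2-fold for 30. Fdft1, which makes squalene, was at -0.15 (SE 0.09, -0.33 to 0.03) and Lss, which closes the sterol ring, at 0.26 (SE 0.17, -0.11 to 0.62). The 8 sterol-activated LXR targets had a median of -0.04 and the 12 tested xenobiotic and AhR genes a median of 0.05.

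Lists for stress, growth and metabolism behaved in the same way. The 68 interferon response genes had a median over the days of -0.00029 with 34 positive, and Ifi47, an interferon-inducible GTPase, was at -0.17 (SE 0.07, unadjusted p = 0.0380, edgeR adjusted p = 1.00). On D7 alone their median was 0.16 and 10 of the 68 had an unadjusted p under 0.05, beside 3.92% of all genes that day, with none called. The 54 cell cycle genes had medians of -0.27 on D3, 0.21 on D7, 0.02 on D14 and -0.16 on D28. The 61 oxidative phosphorylation genes had a median of -0.05, with the interval of all 61 within 2-fold, and the 79 cytosolic ribosomal protein genes one of 0.01, with 78 within 2-fold. These means over the days covered opposite signs. On D3, D7, D14 and D28 the oxidative phosphorylation medians were 0.04, 0.12, -0.19 and -0.20. The ribosomal protein medians were 0.14, 0.18, -0.16 and -0.14, and no member of either list was called on any day. Of 19 circadian clock genes, Clock was at -0.37 (SE 0.12) and Nr1d1, a clock repressor, at 0.48 (SE 0.25), both with an edgeR adjusted p of 1.00. The largest list medians belonged to the 16 glucocorticoid response genes, at 0.21 with 13 positive, and the 32 acute stimulation and dissociation genes, at 0.26 with 28 positive, and no member of either was called. In both lists genes also differed by replicate number, 8 of the 16 and 27 of the 32, beside 17.6% of all genes. The interval lay within 2-fold for 12 of the 16 and 18 of the 32. Tsc22d3, the glucocorticoid-induced leucine zipper, was at 0.36 (SE 0.15), and Klf2, a transcription factor of quiescent T cells, at 0.43 (SE 0.22).

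The T cell programmes gave values of the same order. The 21 Treg associated genes had a median of -0.0036, and the interval lay within 2-fold for all 21, Ikzf2 (Helios) being at -0.22 (SE 0.14). The 34 activated and effector memory genes had a median of -0.0050, in which Itgae, the CD103 integrin chain, was at 0.67 (SE 0.35, 95% interval -0.06 to 1.40). On D28 the 20 resting T cell genes had a median of 0.19 and 6 had an unadjusted p under 0.05, beside 4.93% of all genes, with none called. Over the days they had a median of 0.08, the 24 helper cytokines and regulators one of 0.10, and the 15 gut homing genes one of 0.07.

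**Figure D3:**
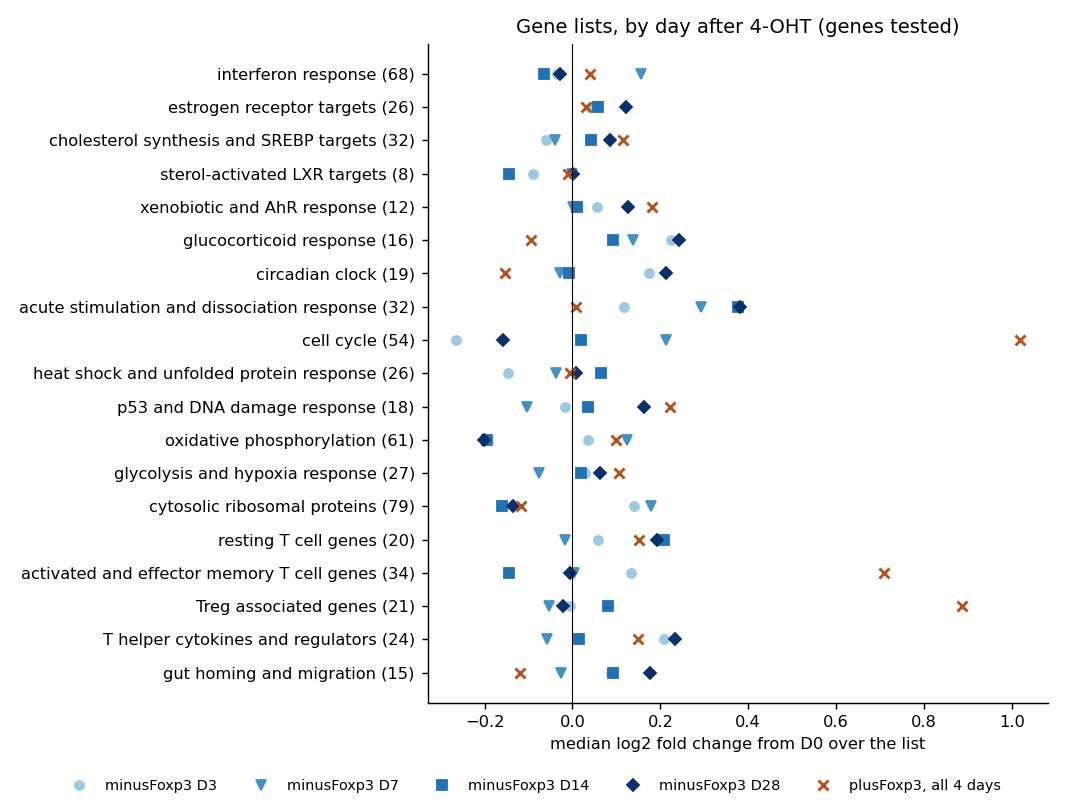
Median log2 fold change from D0 over each of the 19 gene lists that are not marker lists (genes tested in brackets) in minusFoxp3 cells on D3, D7, D14 and D28 (blue) and in plusFoxp3 cells over the 4 days (orange crosses). The minusFoxp3 medians of these lists lie between -0.27 and 0.38, while the plusFoxp3 medians of the cell cycle, Treg associated and activated lists are 1.02, 0.89 and 0.71.

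In plusFoxp3 mice the cells after 4-OHT were sorted as GFP+, whereas the minusFoxp3 cells were sorted as GFP-. The same fit in plusFoxp3 cells, with the same number of libraries, called 984 of 20600 genes in edgeR (4.78%), 512 higher and 472 lower. These genes can be read in minusFoxp3 cells, which share no library with them. Of the 499 higher genes that were tested, none was called in minusFoxp3 cells, their median change was 0.865 in plusFoxp3 and -0.05 in minusFoxp3 cells, and 187 were positive in the latter. Of 471 lower genes none was called, with medians of -0.765 in plusFoxp3 and 0.05 in minusFoxp3 cells. An unadjusted p under 0.05 was reached by 46 of the 970 (4.74%), beside 3.62% of all genes. For 934 the minusFoxp3 interval did not contain the plusFoxp3 estimate. That count leaves out the spread of the plusFoxp3 estimates, on which these genes were chosen. In the direct test of the difference between the genotypes, which uses the same plusFoxp3 libraries again, 423 of the 970 were called. Of the lists, 14 of 21 Treg associated genes were called higher and 1 lower in plusFoxp3 cells and 0 in minusFoxp3 cells. The difference of the 2 effects, tested directly, was called for 504 of 20730 genes (2.43%), 233 with the higher value in minusFoxp3 cells and 271 with the lower. They were led by Foxp3 (-3.27), Thy1 (2.31), the mTORC2 partner gene Prr5l (1.87), Apol7e (1.72), the small GTPase gene Arl5c (-1.16) and Ly6e (-1.02), and in minusFoxp3 cells the changes of the last 4 were 0.09, -0.01, -0.03 and -0.16.

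Cell state and the replicate number held more of the variance of the minusFoxp3 libraries than their share of the degrees of freedom. Over the 12358 genes with a mean count of at least 100, cell state held a mean of 32.6% of the variance in log2 CPM with 5.26% of the degrees of freedom, and the replicate number held 14.6% with the same 5.26%. The 5 days, D0 among them, held 16.6% with 21.1% of the degrees of freedom. The other sources with 21.1% held less: 14.8% for day by replicate number, 9.51% for state by day and 9.99% for the remainder. Because the shares are parts of a whole, the large shares of state and number lower all others. A share under 21.1% therefore does not show that the day had no part. In edgeR, with state and day in the fit, 3658 of 20834 genes (17.6%) differed between replicates 2 and 1, of which 1809 were higher and 1849 lower in replicate 2. Every state and day has 1 library of each number, so the number is balanced against treatment. The labels give the number no meaning, and its part in any result was not tested beyond the fits with and without it.

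**Figure D4:**
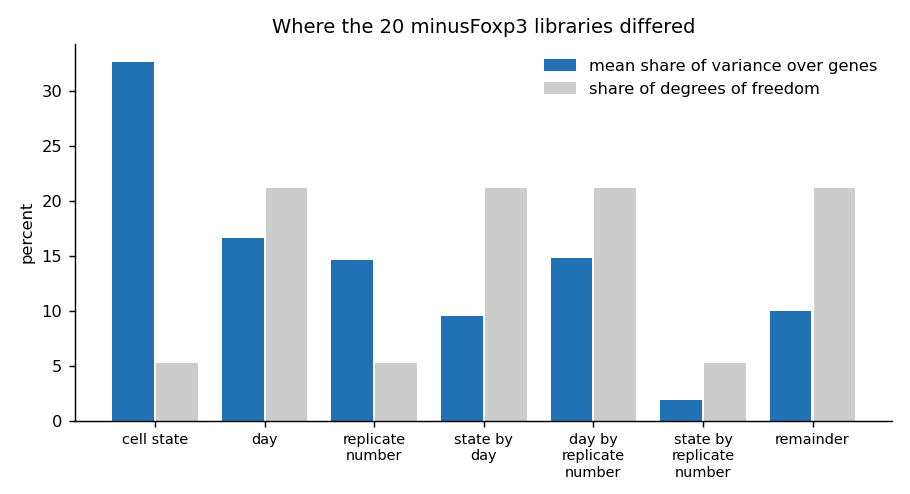
Mean share of the variance of log2 CPM over 12358 genes in the 20 minusFoxp3 libraries (blue bars) and share of the degrees of freedom (grey bars), both in percent, for each source. Cell state (32.6%) and replicate number (14.6%) exceed their 5.26%, and day (16.6%, of 21.1%) and all remaining sources are under theirs.

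The genes with the lowest p for the number, chosen after their values were seen, were immediate early and stress genes that were higher in replicate 2. Dusp1, a MAP kinase phosphatase gene induced within minutes of stimulation, was at 427 to 942 CPM in the 10 libraries numbered 1 and at 1236 to 2234 CPM in the 10 numbered 2. Ppp1r15a, which restarts translation after stress, had a log2 difference of 1.57 (SE 0.09), Tnfaip3, an inhibitor of NF-kB signalling, of 1.80 and Jun of 1.18, and the 2 numbers did not overlap for Dusp1 or Tnfaip3. Of the 32 acute stimulation and dissociation genes 27 were called higher in replicate 2, beside 1809 of all 20834 genes, and 0 were called for treatment. The genes called lower in replicate 2 included 51 of 61 oxidative phosphorylation genes and 50 of 79 ribosomal protein genes, beside 1849 of all 20834 genes. Prelid1, a mitochondrial lipid transfer gene, was at 220.5 to 288 CPM in number 1 and 162 to 201 CPM in number 2. In plusFoxp3 libraries edgeR called 0 of 20600 genes for the number (0%), with 2952 at an unadjusted p under 0.05, and whether the 2 genotypes differ in this was not tested.

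**Figure D5:**
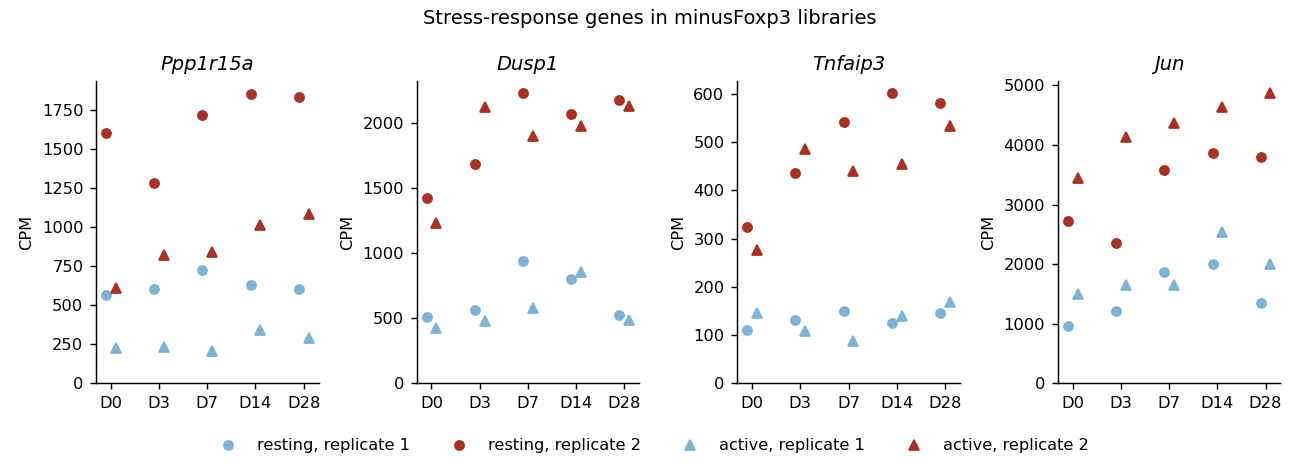
CPM of Ppp1r15a, Dusp1, Tnfaip3 and Jun in the 20 minusFoxp3 libraries by day, with light blue for replicate 1, red for replicate 2, circles for resting and triangles for active cells. On each day and in each state the replicate 2 library is the higher one for all 4 genes.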

How the data were processed

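RNA of sorted cells was amplified with SMART-Seq v4 and sequenced as read pairs. The authors deposited 1 table of raw counts per library, made per the file headers with featureCounts 2.0.3 by gene name, without strand, on a GENCODE mouse annotation of GRCm39. The methods name STAR and the submitters' processing notes Bowtie2 as aligner. The 20 minusFoxp3 libraries were tested with edgeR 4.0.16 (R 4.3.3): TMM scaling, genes with a mean count of at least 10, a robust quasi-likelihood F test on cell state and day, and Benjamini-Hochberg adjustment over all genes at 0.05. The treated contrast was the mean of the 4 day coefficients. The same fit was run on plusFoxp3 libraries, and both genotypes in 1 fit gave the difference of effects. The script was tested on simulated counts.

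Named genes were Foxp3, Cd44, Cd4 and Esr1, the called genes with a mean count of at least 100 whose groups did not overlap, filled by lowest p where too few qualified, and the members of each list with the lowest p. Bpifa2, the genes of the library that stood apart and the replicate number genes were added after their values were seen. A few genes are not reported here. Members and lists were chosen with earlier results of these data known. Alternatives used DESeq2 1.42.0, limma 3.58.1 (voom), other scaling, filters, models and left-out libraries. Resting and active libraries of the same day and number may share an animal: their deviations from the group means correlated at 0.229 to 0.432 in all 5 pairs (median 0.378). Same-numbered libraries of different days also correlated, at 0.000711 to 0.528 (median 0.194), so these values alone cannot show a shared animal. The labels do not state whether an animal was shared, and the p-values in edgeR treat resting and active libraries as separate. Depth limits low genes most, and intervals are 95%.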

Additional observations from a re-analysis of the deposited data

Results flagged for a closer look

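The effect of treatment differed between minusFoxp3 and plusFoxp3 cells for 504 genes in edgeR, tested as a difference of the 2 effects with 20 libraries of each genotype. Given as the minusFoxp3 effect minus the plusFoxp3 effect on the log2 scale, the difference was -3.27 for Foxp3 and 2.31 for Thy1. It was 1.87 for Prr5l, 1.72 for Apol7e, -1.16 for Arl5c and -1.02 for Ly6e, whose minusFoxp3 effects all lay between -0.16 and 0.09. For Cdk5rap1 it was 1.25, and there the minusFoxp3 effect was the larger one.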

How the results depend on the processing

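With RLE size factors, with 1 mean per state and day, in the summed libraries, and in resting or active libraries alone, 0 genes were called for treatment in edgeR, with 365 to 774 at an unadjusted p under 0.05. Without a count filter edgeR called 244 genes for treatment, 307, 204, 209 and 263 for D3, D7, D14 and D28, 1263 among days, 234 from D3 to D28, 131 between states and 2507 in plusFoxp3 cells. Of these 132, 201, 124, 140, 196, 874, 157, 93 and 2117 had a mean count of at least 10, and the median prior degrees of freedom were 4.77 with the filter and infinite without. DESeq2 called 7 genes for treatment, 19, 11, 13 and 12 by day, 31 among days, 5 from D3 to D28, 2 between states, 1864 in plusFoxp3 cells and 938 between genotypes.

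The replicate block left Cdk5rap1 called for treatment (adjusted p = 0.000147 in edgeR) and called 1 gene, Cdk5rap1, on each of D3, D7, D14 and D28, and 799 between genotypes. It changed no other call by over 1.5 times. Same-numbered libraries of other kinds deviated together by 0.000711 to 0.528, over 0.1 in 35 of 40 pairs. The labels give the number no meaning and not every pair was over 0.1, so the fit without the block was kept, while most pairs did deviate together.

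Leaving out 1 library at a time gave 0 to 3 genes for treatment, 0 to 2 on D7, 0 to 1 on D28 and between states, 0 for the other minusFoxp3 comparisons, 482 to 1609 in plusFoxp3 cells and 283 to 1166 between genotypes. The plusFoxp3 count was 482, 607 and 1609 without active D0 replicate 1, resting D0 replicate 1 and resting D0 replicate 2. The genotype count was 321 and 283 without active or resting minusFoxp3 D0 replicate 1, and 302, 294 and 1166 without active D0 replicate 1, resting D0 replicate 1 or resting D0 replicate 2 of plusFoxp3.

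Among 101 single-gene results, 8 genes, none called in the main edgeR fit, changed sign somewhere. Over the left-out libraries Cd4 ran from -0.036 to 0.19, Esr1 from -0.11 to 0.14, Plekhh2 from -11.81 to 0.074, Ahrr from -0.67 to 0.10, Uqcrb from -0.30 to 0.038, Igkc from -2.97 to 0.78 and Jchain from -2.80 to 0.50. In resting libraries alone Esr1 was at 0.14 and Mylip at 0.034, and in active ones Cd4 was at -0.034, Igkc at 0.85 and Jchain at 0.58. The replicate number difference, and its alternatives, were chosen after seeing the data: 97 genes were called in resting libraries alone, 41 in active ones alone and 0 in plusFoxp3 libraries, where 2952 had an unadjusted p under 0.05 in edgeR. Why these values moved was not tested.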

Other observations

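The replicate number difference was also described across the genotypes. Of the 3658 genes called in minusFoxp3 libraries, 3615 were tested in plusFoxp3 libraries, and 3185 of these had the same sign there. The same-sign share over all genes was not counted, so what is particular to the called genes cannot be told. Over 12355 genes with a mean count of at least 100, called or not, the mean differences of the 2 genotypes correlated at 0.426. Dusp1 was at 382 to 985 CPM in plusFoxp3 libraries numbered 1 and at 530 to 1234 CPM in those numbered 2, 2 ranges that overlap, as did those of Tnfaip3 at 124 to 338 and 240.0 to 355 CPM. Cdk5rap1 itself was higher in replicate 2 of the minusFoxp3 libraries by 0.50 on the log2 scale (edgeR adjusted p = 0.0048) and had a difference of -0.49 in the plusFoxp3 libraries (edgeR adjusted p = 0.140).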
